A study of Drosophila melanogaster with 9 samples.

Results

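The genes described here are 9 genes of neural precursor fate in *Drosophila melanogaster*, *pros*, *SoxN*, *insc*, *mira*, *ase*, *dpn*, *D*, *brat* and *numb*, of 11982 genes measured. They were picked by name, with their response to loss of Polyhomeotic (Ph) already known, and every probe set to which the platform annotation gives 1 of these symbols alone was taken. Each gene had 1 such probe set, so the 9 genes are 9 of 18768 probe sets, and no second probe set was there to set beside the first. Because the response took part in the choice of genes, their changes after Ph RNAi are given as a description, without p-values. Their calls and intervals are likewise a description and no test of the choice.

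The study asked what the Polycomb repressive complex PRC1, of which Ph is a core subunit, does at silenced and at active genes. Gene expression was measured on 9 Affymetrix Drosophila Genome 2.0 arrays. Of these, 3 were from Ph RNAi-treated BG3 cells, after 5 days with dsRNA against sequence that *ph-p* and *ph-d* have in common (10 µg per well), 3 from Mock RNAi-treated BG3 cells, and 3 from *yw* wing imaginal discs of late last-instar larvae (12 to 15 discs of both sexes per replicate). BG3 is a male line from the larval central nervous system and stands here as 1 line. The labels call the replicates biological and say no more of separate cultures. The SE values and intervals therefore measure the spread between these arrays. No dsRNA without a target is named for the Mock RNAi cells, so that a response to dsRNA as such and one to the loss of Ph cannot be told apart. *ph-p* and *ph-d* were not analysed here, so that depletion was not checked on these arrays.

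Neuroblasts, the stem cells of the fly nervous system, divide unequally. A protein complex at the apical side of the cell orients the spindle, and adaptors on the opposite side carry fate determinants into the smaller daughter, the ganglion mother cell. Transcription factors keep the neuroblast in its state, and the inherited determinants end that state in the daughter. Many developmental regulators are silenced by Polycomb complexes in cells that do not use them.

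Values are on the log2 scale of GCRMA, which squeezes weak signals into a narrow band. The values of the 11982 genes on the BG3 arrays form a lower mode with its peak at 1.87 and an upper mode with its peak at 8.91, and the boundary between them lies at 3.97. A gene in the lower mode has little room to fall, and a fold change from there depends on the background correction. Wing disc arrays lie on another scale (median 0.827 to 0.842 over the probe sets, against 2.22 to 2.23 in Ph RNAi and 2.21 to 2.23 in Mock RNAi), with a boundary at 2.90, so that wing disc levels are given as percentiles within the array. Arrays of a group correlated at r = 0.990 to 0.994 in Ph RNAi, 0.992 to 0.997 in Mock RNAi and 0.997 to 0.998 in wing disc. The signal of the actin control at its 3′ end exceeded that at its 5′ end by 1.38 to 2.06 in Ph RNAi, by 1.73 to 2.26 in Mock RNAi and by 3.12 to 3.34 in wing disc.

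After Ph RNAi, 3 of the 9 genes were high in cells where they had been near or below the boundary of the modes, and the other 6 kept their side of it. The 3 are the fate determinant *pros*, the Sox factor *SoxN* and the spindle adaptor *insc*. They were called higher in the fit over all genes (adjusted p under 0.05), and 0 of the 9 were called lower. Over all genes, 3.2% were called higher and 1.57% lower (384 and 188 genes, or 339 and 507 with each array centred on its median), and nothing is read from the count of 3 beside that share, because the same contrast was known when the genes were chosen. The median change of the 9 genes was 0.02 and their mean 1.89, against -0.03 and 0.01 over all genes. The 3 Ph RNAi arrays lay above the 3 Mock RNAi arrays for 3 of the 9 genes, which was so for 9.91% of all genes, and the groups overlapped for the other 6 (23.5% of all genes had groups that did not overlap in either direction). In these bulk samples, more cells with a transcript and more transcript per cell cannot be told apart.

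**Figure D1:**
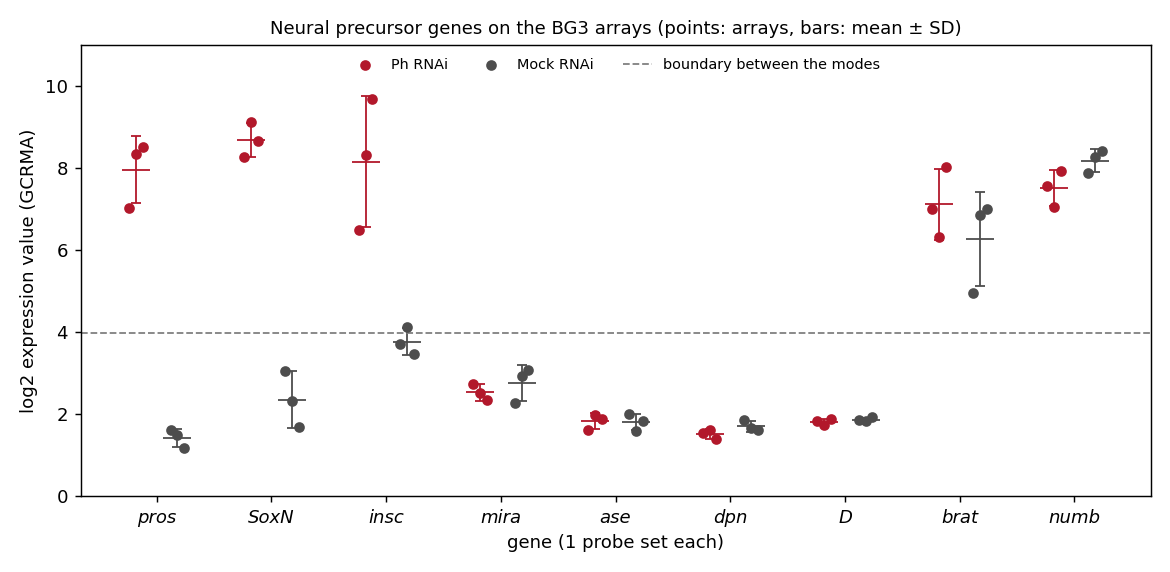
Log2 expression values (vertical axis) of the 9 genes on the 3 Ph RNAi (red) and 3 Mock RNAi (grey) arrays, 1 point per array, with the mean and SD as bars. *pros*, *SoxN* and *insc* lie above the dashed boundary of the modes (3.97) on all Ph RNAi arrays, *mira*, *ase*, *dpn* and *D* lie below it in both groups, and *brat* and *numb* lie above it in both.

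Of the determinants that pass into the ganglion mother cell, *pros* encodes a homeodomain transcription factor that shuts off stem cell genes and starts differentiation, and which is also found in some glia of the fly embryo. Its values were 7.02, 8.33 and 8.51 in Ph RNAi, against 1.61, 1.48 and 1.18 in Mock RNAi. All 3 Mock RNAi values sit under the lower peak, and the lowest Ph RNAi value is far above the boundary. The change was 6.53 ± 0.39 on the log2 scale (SE, 92.4-fold), the 12th largest of 11982 in absolute size. Within the array, *pros* stood at percentile 72.4 ± 5.80 of all genes in Ph RNAi and at 4.02 ± 4.18 in Mock RNAi (SD, n = 3 each).

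The other determinants were already expressed. *brat* encodes a TRIM-NHL protein that represses translation and holds back growth in the daughter cell. Its values were 6.99, 6.31 and 8.02 in Ph RNAi, against 4.95, 6.84 and 7.004 in Mock RNAi. The groups overlap, and 1 Mock RNAi array, replicate 1, lies apart below the rest. The change of 0.84 ± 0.56 (SE) did not pass the test, its 95% interval ran from -0.40 to 2.08, and without Mock RNAi replicate 1 it was 0.18.

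*numb* encodes an endocytic protein that blocks Notch signalling in the daughter that inherits it. It had 7.55, 7.05 and 7.93 in Ph RNAi, against 7.87, 8.25 and 8.40 in Mock RNAi. The highest Ph RNAi value lies just above the lowest Mock RNAi value, and the remaining Ph RNAi values lie below all of Mock RNAi. The change was -0.66 ± 0.28 (SE), with a 95% interval of -1.29 to -0.04 for this gene taken alone, and it did not pass the test over all genes. While the change of *pros* lay far outside it, those of *brat* and *numb*, whose products travel to the same daughter cell, lay within the central range of all genes (-0.92 to 1.40 for 95% of them).

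Of the adaptors, *insc* encodes Inscuteable, which joins the apical polarity proteins to the spindle-pulling complex. Its values were 6.49, 8.31 and 9.67 in Ph RNAi, against 3.71, 4.12 and 3.46 in Mock RNAi. All 3 Ph RNAi values are higher than all 3 of Mock RNAi, of which 1, replicate 2, lies just above the boundary of the modes. The change was 4.39 ± 0.63 (SE, 21-fold), the 53rd largest in absolute size. Its SD of 1.60 in Ph RNAi was the widest of the 9 genes in that group, against 0.33 in Mock RNAi (n = 3 each). Leaving out Ph RNAi replicate 1 gave a change of 5.22 and leaving out replicate 3 one of 3.63, both of which were still called.

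*mira* encodes Miranda, the basal adaptor that carries the Prospero and Brat proteins. It had 2.73, 2.52 and 2.33 in Ph RNAi, against 2.26, 2.94 and 3.07 in Mock RNAi. All 6 values lie in the lower mode and the groups overlap. The change was -0.23 ± 0.23 (SE, 95% interval -0.73 to 0.27). The transcript of the cargo *pros* was thus high in Ph RNAi cells on arrays where the probe set of its carrier gave a signal of the lower mode.

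Among the transcription factors of the precursors themselves, *SoxN* encodes an HMG-box protein of the SoxB group that acts in the early neuroectoderm. Its values were 8.27, 9.11 and 8.65 in Ph RNAi, against 3.06, 2.31 and 1.68 in Mock RNAi. The Ph RNAi values lie close together in the upper mode, and the Mock RNAi values are spread over the lower mode. The change was 6.33 ± 0.38 (SE, 80.3-fold), the 15th largest in absolute size. Its percentile was 77.7 ± 3.70 in Ph RNAi and 35.7 ± 20.3 in Mock RNAi (SD, n = 3 each).

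*D* (Dichaete), the partner of *SoxN* in the SoxB group and likewise active in the neuroectoderm, had 1.84, 1.74 and 1.87 in Ph RNAi, against 1.84, 1.82 and 1.92 in Mock RNAi. All 6 values lie at the lower peak. The change was -0.05 ± 0.10 (SE, 95% interval -0.28 to 0.18).

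*ase* (asense), a bHLH factor of the achaete-scute complex that marks most neuroblasts, had 1.61, 1.99 and 1.89 in Ph RNAi, against 2.00, 1.59 and 1.83 in Mock RNAi. The values of both groups fill the same range at the lower peak. The change was 0.02 ± 0.14 (SE, 95% interval -0.28 to 0.33), and its sign turned in several other settings.

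*dpn* (deadpan), a bHLH repressor of the Hes family that maintains neuroblast self-renewal, had 1.53, 1.62 and 1.39 in Ph RNAi, against 1.86, 1.66 and 1.60 in Mock RNAi. These values too lie in the lower mode, with 1 Ph RNAi value between those of Mock RNAi. The change was -0.19 ± 0.11 (SE, 95% interval -0.43 to 0.04).

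**Figure D2:**
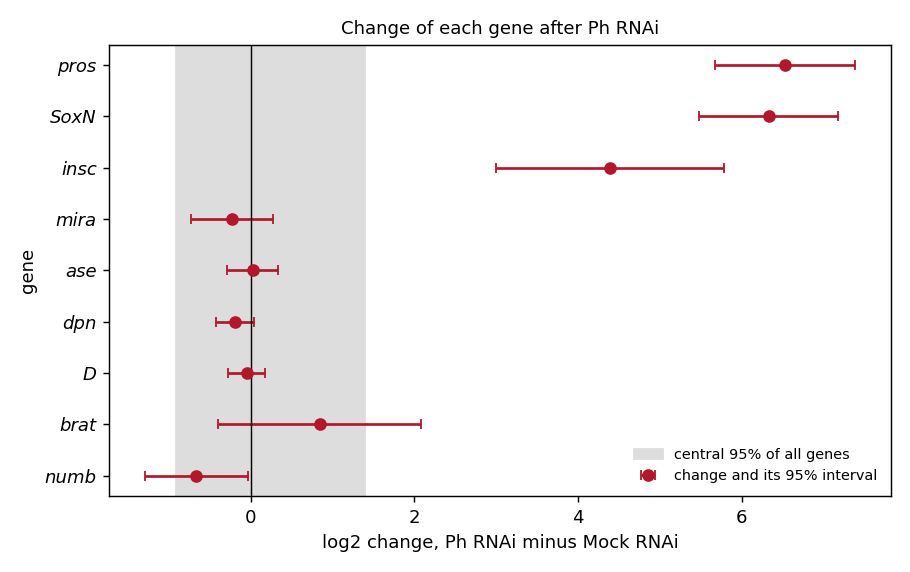
Log2 change of each gene, Ph RNAi minus Mock RNAi (horizontal axis), with its 95% interval from the limma fit over all genes, and the range that holds the central 95% of all genes shaded (-0.92 to 1.40). The intervals of *pros*, *SoxN* and *insc* lie wholly to the right of the shaded range, and the estimates of the other 6 genes lie inside it.

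Of the 9 genes, 6 lay in the lower mode on all Mock RNAi arrays (*pros*, *SoxN*, *mira*, *ase*, *dpn* and *D*), and 2 of these, *pros* and *SoxN*, lay in the upper mode on all Ph RNAi arrays. Of the 6328 genes in the lower mode on all Mock RNAi arrays, 104 (1.64%) made that move, and 2.97% were called higher. The number of the 9 genes in the upper mode on all arrays of a group was 5 in Ph RNAi and 2 in Mock RNAi, while that of all genes was 5432 in each. Of the 5432 in Mock RNAi, 3.11% were called higher and 3.11% lower (6.22% together), and of the 2 among the 9 genes, *brat* and *numb*, 0 were called. Ph RNAi replicate 1 had the lowest Ph RNAi value for *pros*, *SoxN* and *insc* alike, and no replicate was highest for all 3.

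Profiles were compared by root mean square difference over the 6 BG3 arrays, each gene centred on its own mean. Genes with only an annotation number (CG or CR) for a symbol were left out. Among the rest, the genes nearest to *pros* were *ltl* (0.40), *SoxN* (0.44) and *ome* (0.55). Those nearest to *SoxN* were *ltl* (0.43), *pros* (0.44) and *Lapsyn* (0.49), so that *pros* and *SoxN* were among each other's 3 nearest. Those nearest to *insc* were *dpp* (0.43), which encodes a BMP-type ligand, *cpo* (0.54), an RNA-binding protein gene of the nervous system, and *peb* (0.61), a zinc finger gene. The differences are in log2 units, and each of these genes was called higher. Their changes lay between 5.92 and 6.65 for the neighbours of *pros* and *SoxN* and between 4.45 and 4.58 for those of *insc*, so the genes named are ones that changed by a like amount. With the mean of their probe sets the changes of *ome* and *cpo* were 1.54 and 1.95.

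The genes around the 9 in the same pathways were read from 10 lists, of whose 145 entries 113 had a measured gene that is not among the 9. Of these 113 genes, 12 were called higher and 5 lower by limma, against 3.2% and 1.57% of all genes. The lists were drawn up with earlier results of these data known.

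Of 14 measured genes of the asymmetric division machinery, 2 were higher and 0 lower, with a median change of 0.25 (0.07 with median centring of the arrays). *cno*, which encodes the actin-binding protein Canoe of the apical cortex, had 6.09, 6.25 and 6.20 in Ph RNAi, against 3.70, 3.59 and 3.24 in Mock RNAi (change 2.67 ± 0.27, SE, adjusted p = 0.000151), or a change of 1.30 with the mean of its probe sets. This put *cno* in the upper mode on all Ph RNAi arrays and in the lower mode on all Mock RNAi arrays. *aPKC*, the kinase of the apical Par complex, had 11.002, 11.04 and 11.64 in Ph RNAi, against 8.99, 10.39 and 10.05 in Mock RNAi (change 1.42 ± 0.33, SE, adjusted p = 0.0329). Leaving out any array but Mock RNAi replicate 2 ended its call (adjusted p = 0.0503 to 0.132), as did omitting the variance trend (0.0934), and so it was with the mean of its probe sets (change 0.59, adjusted p = 0.338). Other partners of Inscuteable did not pass, *baz* (Bazooka, of the Par complex) at 0.82 ± 0.34, *par-6* at 0.25 ± 0.18 and *pins*, the linker to the spindle, at 0.38 ± 0.21 (SE). Of the 14 genes, 13 lay in the upper mode on all Ph RNAi arrays and 12 on all Mock RNAi arrays.

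Of 17 proneural and neuroblast factors measured, 0 were called higher by limma and 1 was lower. An unadjusted p under 0.05 was found for 3 of them, and 15 lay in the lower mode on all Mock RNAi arrays. The median change was 0.10, which turned to -0.08 with median centring and, over the 2 genes that a filter on dim genes left, to -0.37. The gene that fell was *emc*, an inhibitor of proneural bHLH proteins, at 12.12 ± 0.18 in Ph RNAi and 13.02 ± 0.24 in Mock RNAi (SD, n = 3 each, adjusted p = 0.00694). The others with an unadjusted p under 0.05, *l(1)sc* (0.30 ± 0.10) and *klu* (0.33 ± 0.14, SE), had positive changes within the lower mode and did not pass after adjustment. The proneural genes *ac* (0.03 ± 0.10) and *sc* (0.11 ± 0.15) and the Snail-type neuroblast factors *wor* (0.14 ± 0.12) and *esg* (-0.05 ± 0.11) did not pass (SE).

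Of 16 temporal and lineage factors, 2 were higher and 0 lower, with a median of 0.08 that turned to -0.10 with median centring. The filter on dim genes left only *nub* and *slp2*, both in the lower mode on all Mock RNAi arrays. The median of 2.80 over these 2 restates their rises, since they passed the filter through their Ph RNAi values. *nub*, a POU factor of a middle window of embryonic neuroblasts, had 4.97, 4.27 and 5.60 in Ph RNAi, against 2.34, 1.55 and 1.68 in Mock RNAi (change 3.09 ± 0.34, SE, adjusted p = 0.000327), but its change was 1.03 with the mean of its probe sets. *slp2*, a forkhead factor used in neuroblasts of the optic lobe, had 4.27, 4.46 and 5.10, against 2.72, 1.85 and 1.72 in Mock RNAi (change 2.52 ± 0.31, SE, adjusted p = 0.000777). Both stood in the upper mode after Ph RNAi, on arrays where the early factors *hb* (0.14 ± 0.10) and *Kr* (0.03 ± 0.14) did not pass (SE).

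Of the 6 other Sox genes, 1 was called. *Sox15* was at 2.41 ± 0.20 in Ph RNAi and 1.80 ± 0.19 in Mock RNAi (SD, n = 3 each, adjusted p = 0.0423), both of them in the lower mode. This call was lost with median centring (adjusted p = 0.0897), with quantile normalization (0.0545), with the mean of its probe sets (0.194) and when replicate 1 or 3 of either group was left out (0.122 to 0.156). Without the variance trend it was lost as well (0.0921). *Sox21a* (-0.17 ± 0.17) and *Sox21b* (0.02 ± 0.11), the remaining SoxB genes, lay low with both treatments and did not pass (SE). Of the SoxB genes named here, *SoxN* alone was thus called, and the differences between the genes were not tested.

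Notch signalling, which Numb opposes, was read from 9 core genes. Of these, 1 was higher and 0 lower, with a median of 0.05 that turned to -0.13 with median centring, to -0.10 without Mock RNAi replicate 1 and to -0.09 without Ph RNAi replicate 3. *fng*, which modifies the Notch receptor, was at 9.42 ± 0.34 in Ph RNAi and 7.68 ± 0.84 in Mock RNAi (SD, n = 3 each, adjusted p = 0.0245). The call ended when Mock RNAi replicate 2 or 3, or Ph RNAi replicate 1 or 3, was left out (adjusted p = 0.0608 to 0.102). It ended too without the variance trend (0.0686). *spdo*, a membrane protein through which Numb acts on Notch, was at 0.05 ± 0.16 (SE).

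Cell division genes are among those that Prospero is known to restrain. Of 10 measured cell cycle regulators, 1 was lower and 0 were higher, with a median change of -0.63 (-0.30 without Ph RNAi replicate 2, and -0.57 to -0.82 without the others). *Cdk2*, the partner of cyclin E, had 5.63, 4.76 and 4.77 in Ph RNAi, against 7.57, 6.58 and 7.54 in Mock RNAi (change -2.18 ± 0.37, SE, adjusted p = 0.00516). Its groups do not overlap. An unadjusted p under 0.05 by limma was found for 4 of the 10, *Cdk2* among them. *CycB3* (-1.18 ± 0.42), *Cdk4* (-1.01 ± 0.33), *CycB* (-0.70 ± 0.28), *PCNA* (-0.56 ± 0.26) and *CycE* (-0.12 ± 0.41) did not pass after adjustment (SE). Whether the rise of *pros* had a part in these changes was not tested.

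**Figure D3:**
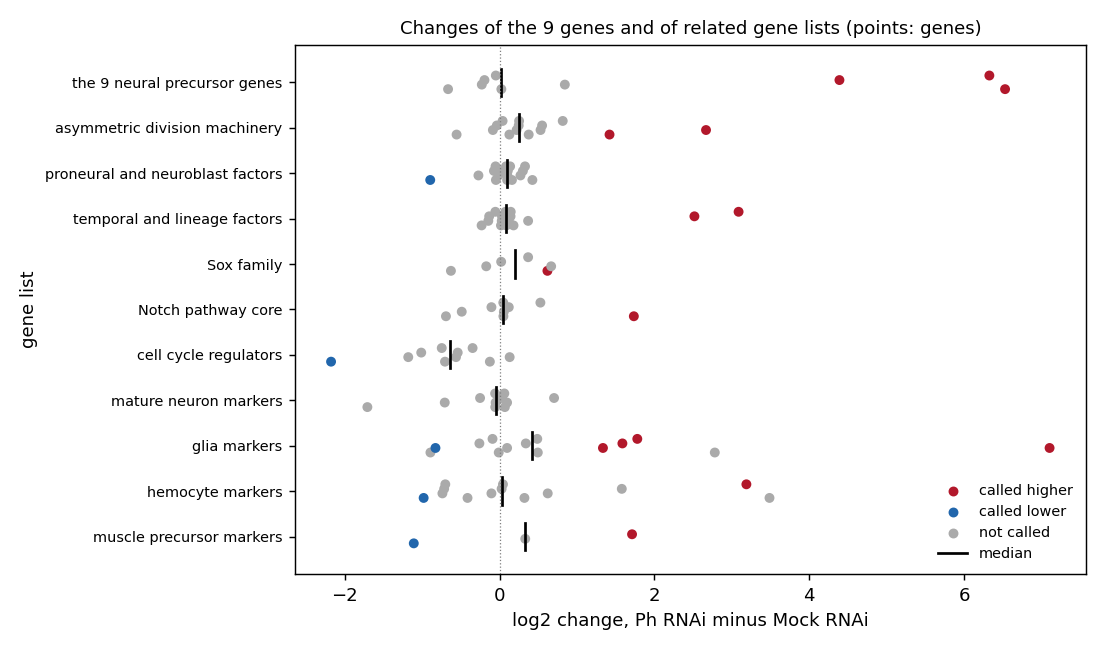
Log2 change, Ph RNAi minus Mock RNAi (horizontal axis), of the 9 genes in the top row and of the related lists below it, 1 point per gene, red where called higher, blue where called lower and grey where not called, with the median of each row as a black line. Row medians run from -0.63 for cell cycle regulators to 0.41 for glia markers, and *repo* among the glia markers and *pros* and *SoxN* in the top row lie farthest right.

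Markers of cell types that a line from the nervous system could hold moved with *pros* and *SoxN* in part. Of 14 glia markers, 4 were higher and 1 was lower, with a median change of 0.41 (0.23 with median centring). Their mean level was 6.70 to 6.98 on the Ph RNAi arrays and 5.68 to 5.89 on the Mock RNAi arrays. Over the 9 that the filter on dim genes left, the median was 1.34. Of those 9, *repo* and *alrm* lay in the lower mode on all Mock RNAi arrays and passed through their Ph RNAi values. The median of 1.34 thus restates their rises in part. *alrm*, named after its values were seen, had 3.64, 7.02 and 3.46 in Ph RNAi, against 2.06, 1.69 and 2.04 in Mock RNAi. It was not called (change 2.78 ± 0.74, SE). *repo*, the homeodomain factor of glia, had 10.25, 10.24 and 10.19 in Ph RNAi, against 3.08, 2.60 and 3.69 in Mock RNAi. *nrv2* (1.59 ± 0.24), *loco* (1.34 ± 0.17) and *Gli* (1.78 ± 0.45, SE) were the other calls upward. For *Gli*, leaving out any array but Mock RNAi replicate 2 ended the call (adjusted p = 0.059 to 0.153). So did quantile normalization, omitting the variance trend, the mean of probe sets and every probe set as the unit (0.0588 to 0.114). The gene that was lower, *drpr*, the engulfment receptor of glia, which is named here after its value was seen (-0.83 ± 0.20, SE), was no longer called when any array but Ph RNAi replicate 3 was left out (adjusted p = 0.085 to 0.133). Its call was lost as well with quantile normalization, without the variance trend and with the mean of probe sets (0.0502 to 0.0921). *gcm*, which starts glial fate in the embryo, stayed in the lower mode at 2.19 and 1.85 (means of Ph RNAi and Mock RNAi).

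Of 11 mature neuron markers, 0 were called by limma and 2 had an unadjusted p under 0.05, and their mean level was 3.31 to 3.37 in Ph RNAi and 3.27 to 3.63 in Mock RNAi. *nrv3* (-1.71 ± 0.44) and *Snap25* (-0.71 ± 0.23, SE) had the smallest p. *nrv3* was called lower in 6 other settings, which were quantile normalization, median centring, the robust prior, the filter on dim genes, the replicate block and the omission of Mock RNAi replicate 1 (adjusted p = 0.00105 to 0.049). *Snap25* was called lower with the replicate block (0.0244). *elav*, a common marker of neurons, was at 7.39 in Ph RNAi and 6.69 in Mock RNAi (means, change 0.70 ± 0.34, SE). In the wing disc *elav* stood at percentile 78.9 to 81.7. The synaptic genes *nSyb* and *brp* stayed in the lower mode, while the synaptic gene *cpx* was at 9.80 in Ph RNAi and 10.06 in Mock RNAi (means).

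Of 13 hemocyte markers, 1 was higher and 1 lower. The mean level was 5.995, 6.14 and 7.45 in Ph RNAi, against 5.96, 6.26 and 6.07 in Mock RNAi, so that Ph RNAi replicate 3 stood apart from the other 5 arrays. *PPO1*, a prophenoloxidase gene of crystal cells that is named after its values were seen, had the largest change of the list (3.49 ± 1.27, SE, not called). It had 2.73, 4.44 and 9.53 in Ph RNAi, against 2.08, 2.18 and 1.98 in Mock RNAi. *insc* and *pros* likewise had their lowest Ph RNAi value in replicate 1 and their highest in replicate 3, and *SoxN* had its highest in replicate 2. Without replicate 3 the changes of *pros*, *SoxN* and *insc* were 6.25, 6.34 and 3.63, all still called. *He*, a surface protein of blood cells, was at 5.03 ± 1.85 in Ph RNAi and 1.84 ± 0.08 in Mock RNAi (SD, n = 3 each), which was no longer called when any of the Mock RNAi arrays was left out (adjusted p = 0.0629 to 0.0704). The call of *He* was also lost with the robust prior (0.111) and without the variance trend (0.0873). *vkg*, a collagen IV chain, was lower (-0.98 ± 0.25, SE), a call that ended when replicate 1 or 2 of either group was left out (adjusted p = 0.117 to 0.154). It ended too with quantile normalization, without the variance trend, with the mean of probe sets and with every probe set as the unit (0.0518 to 0.119). The hemocyte gene *Hml* was in the lower mode throughout. Of the 13 markers, 6 lay in the upper mode on all Ph RNAi arrays and 6 on all Mock RNAi arrays. Among them were *srp* (10.07 and 10.77) and *crq* (10.67 and 10.63, means of Ph RNAi and Mock RNAi). Of 3 muscle precursor markers, *twi* was higher (1.71 ± 0.23) and *kirre* lower (-1.11 ± 0.16, SE), and *kirre* was not called with the mean of its probe sets (adjusted p = 0.165). The mean level of these was 5.55 to 5.74 in Ph RNAi and 5.20 to 5.47 in Mock RNAi. The part of these cell types in the changes of *pros*, *SoxN* and *insc* was not tested.

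In the wing disc, an epithelium that forms the adult wing and thorax and holds few neural precursors, the set of genes that ranked high differed in part. Those in the upper mode on all 3 wing disc arrays were *numb*, *dpn*, *brat* and *insc*, 4 of 9, against 47.4% of all genes. Of these, *numb*, *brat* and *insc* were in the upper mode on all Ph RNAi arrays too. *numb* stood at percentile 95.6 ± 0.76, *dpn* at 80.6 ± 0.40, *brat* at 77.3 ± 2.72 and *insc* at 61.1 ± 2.01 (SD, n = 3 each). *SoxN* (44.7 ± 1.35), *mira* (50.2 ± 0.94), *ase* (48.7 ± 0.94), *pros* (26.5 ± 10.7) and *D* (15.9 ± 1.98) lay in the lower mode of the disc arrays. A percentile depends on the probes of a set, so that the order of different genes is not an order of transcript numbers.

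The same gene can be followed across the 3 groups. *dpn* was at percentile 80.3 to 81.0 in wing disc, whereas it was at 1.67 to 8.70 in Ph RNAi and 8.60 to 22.4 in Mock RNAi. *pros* was the opposite case, at 65.7 to 76.1 in Ph RNAi, 0.179 to 8.48 in Mock RNAi and 14.98 to 36.1 in wing disc. *insc* ranked at 62.9 to 85.8 in Ph RNAi and 52.0 to 54.0 in Mock RNAi, with the wing disc at 58.9 to 62.9 between them. *numb* ranked at 66.6 to 71.7 in Ph RNAi and 71.2 to 75.4 in Mock RNAi, and at 94.7 to 96.2 in wing disc. Whether the wing disc arrays were normalized together with the BG3 arrays is not given in the sources used here, and with medians so far apart no test was made across them.

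**Figure D4:**
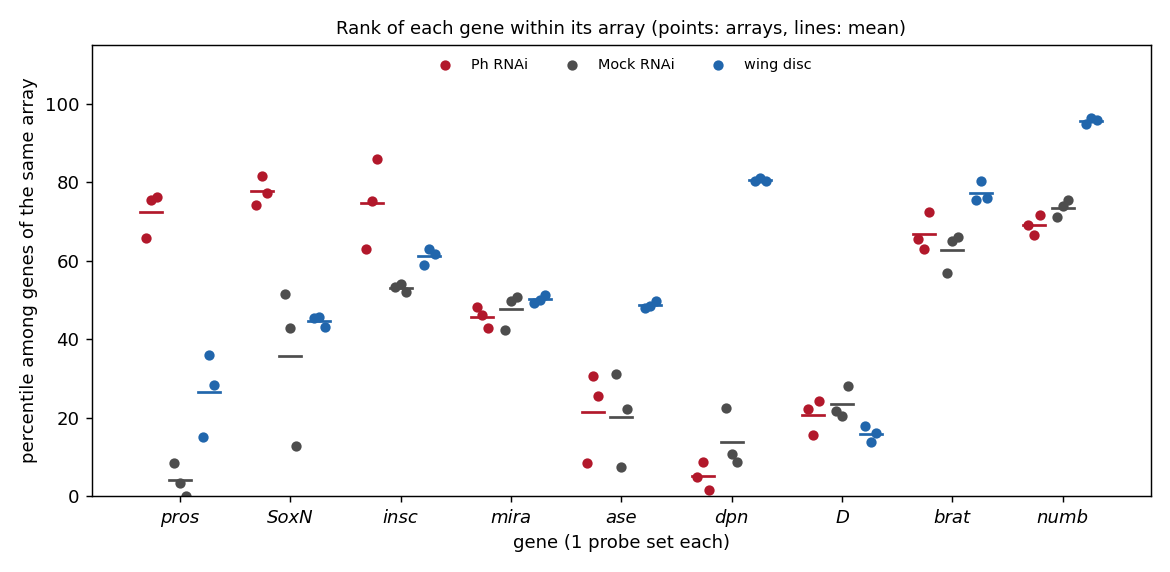
Percentile of each gene among the 11982 genes of the same array (vertical axis) in Ph RNAi (red), Mock RNAi (grey) and wing disc (blue), 1 point per array and a line at the mean of 3. *pros* and *SoxN* rank high only in Ph RNAi of the 3 groups, *dpn* only in wing disc, and *numb* and *brat* rank in the upper part in every group.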

How the data were processed

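RNA of 9 samples was labelled from 200 ng and hybridized to Affymetrix Drosophila Genome 2.0 arrays. The authors deposited 1 log2 value for each probe set and array, made with GCRMA, whose version and settings are not given in the sources used here. No detection calls, counts or scan dates were used. Precision is limited by the 3 arrays per group.

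Of 18952 rows, 183 control rows and 1 blank row were left out. Of 18768 probe sets, 13647 had 1 gene symbol, 402 several and 4719 none in the platform annotation. 13544 matched a gene number of the RefSeq Release 6 plus ISO1 MT annotation, and 0 symbols changed. For each of the 1094 genes with several probe sets the one with the highest mean over the 9 arrays was used, which gave 11982 genes.

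For Ph RNAi against Mock RNAi a linear model was fitted to each gene with limma 3.58.1 (R 4.3.3), its variances moderated along a trend with the mean. Tests were two-sided, with Benjamini-Hochberg adjustment over 11982 genes and a threshold of 0.05. The procedure was tested on simulated data. Modes are those of a kernel density over all genes and arrays. Intervals are 95% intervals of limma, not adjusted for the number of genes.

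The members and lists were chosen with earlier results of these data known. Named genes are the 9 and up to 4 called genes of each list with the largest change (or, where none was called, the 2 with the smallest p). For each called gene of the 9, the 3 nearest profiles are named too, genes with only an annotation number (CG or CR) left out. A few other list genes are named as examples, after their values were seen. A search of promoters for motifs was planned and not made. Same-numbered replicates were not taken as pairs, though 3 arrays per group cannot settle whether they are. The alternatives were every probe set as the unit, the mean of probe sets, quantile normalization, median centring, no variance trend, a robust prior, a filter on dim genes, a replicate block and each array left out.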

Additional observations from a re-analysis of the deposited data

How the results depend on the processing

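*pros*, *SoxN* and *insc* were called higher, and 0 of the 9 genes lower, in each of the 14 other settings. The genes were chosen with this contrast known, so these calls describe only how far the values depend on processing. Of 122 values of the 9 genes in those settings 118 kept direction and side of the threshold. The other 4 belong to *ase*, whose change of 0.02 became -0.16 with median centring and ran from -0.084 to 0.133 with 1 array left out (-0.084 if Mock RNAi replicate 2 was omitted, and -0.055 and -0.007 if Ph RNAi replicates 2 and 3 were). Median centring lowers every change by 0.18 and gave 339 genes higher and 507 lower, against 384 and 188 with the deposited values. With 1 array left out, genes called lower numbered 88 to 158 (99 and 88 for Mock RNAi replicates 2 and 3, 118 for Ph RNAi replicate 3) and genes called higher 266 to 378. Over the lists 12 genes were higher and 5 lower. These were 7 and 3 without the variance trend, and those lower were 8 with median centring, 2 with the mean of probe sets and 8 with the replicate block. With 1 array left out they were 7 to 11 higher and 3 to 6 lower. The causes were not tested. Samples with the same replicate number correlated, in their deviations from the group means, at 0.16, 0.16 and -0.17, so the numbers were not taken as pairs. The replicate block gave 503 genes higher and 263 lower. Percentiles of the 9 genes differed by up to 11.4 points when all probe sets were ranked. The filter on dim genes removed *mira*, *ase*, *dpn* and *D*. *pros* and *SoxN*, in the lower mode on all Mock RNAi arrays, passed it through their Ph RNAi values. Their calls with that filter are therefore no separate check.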

Other observations

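The measured genes on either side of each of the 9 along the RefSeq annotation were looked up after the values of the 9 were known. Of these 18 neighbours, 0 were called by limma, and 1 had an unadjusted p under 0.05. Beside *pros*, *mRpL40*, a mitochondrial ribosomal protein gene, changed by -0.24 ± 0.26 and the non-coding *lncRNA:CR31386* by 0.20 ± 0.14 (SE). Beside *SoxN*, *CG42710* (-0.04 ± 0.12) and *CG32986* (-0.01 ± 0.08, SE) were in the lower mode throughout. Beside *insc*, *sktl*, a phosphatidylinositol phosphate kinase gene, was at 7.08 in Ph RNAi and 6.64 in Mock RNAi (means, change 0.44 ± 0.26), and *CG15225* changed by -0.16 ± 0.12 (SE). *Sox21b* lies next to *D* and *l(1)sc* next to *ase*, and *l(1)sc* changed by 0.30 ± 0.10 (SE) within the lower mode. Unmeasured genes can lie between a gene and its neighbour here.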
